A study of Mus musculus with 2 samples.

Results

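The genes described here encode the proteins that give a cortical progenitor its apical pole and that have been linked to unequal fates of its daughters. They were taken as the rows of both expression tables whose symbol is Pard3, Pard6b, Prkci, Prkcz, Crb2, Mpp5, Llgl1, Ctnna1, Numb or Numbl, 10 of 20373 listed genes, and all 10 were found once in each table. RNA was sequenced from neurons and from neural progenitor cells (NPCs) of the mouse cortex, sorted by fluorescence at embryonic day 15.5, with 1 library of each population. The embryos came from heterozygous Nestin-GFP mice mated with homozygous DCX-mRFP mice and carried both reporters, GFP green under Nestin and mRFP red under doublecortin (DCX). Per the labels, neurons were sorted as cells with both colours and NPCs as green cells, from embryos of the same mating. The sorted neurons were thus cells that held the progenitor reporter too. The series relates these transcriptomes to RNA polymerase II pausing and bivalent histone marks, which were not analysed here.

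Radial glia, the stem cells of the embryonic cortex, keep a short process at the ventricular surface, where a ring of adherens junctions binds neighbouring end-feet together. The PAR complex (PAR3, PAR6 and an atypical protein kinase C, bound by the GTPase CDC42) and the Crumbs complex sit at or above this ring, while LGL proteins act against the kinase on the basolateral side. Newborn neurons let go of the junction and migrate away, and there PAR proteins take part in choosing the axon. NUMB and NUMBL are endocytic adaptors that bind Notch and cadherin complexes and have been studied as determinants of progenitor and neuronal fate.

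Levels are given in CPM, reads per 1000000 reads on a scale common to both libraries, with the recovered reads behind them. Folds of a gene are ratios of CPM, and their intervals are exact 95% Clopper-Pearson intervals that cover counting error only. Folds between read ratios of paralogs are odds ratios of reads. Their 95% intervals are those of the conditional odds ratio and cover counting error only. With 1 library per population there was no replicate check and no p-value, so the intervals compare these libraries and not the cell types. In sorted bulk RNA, fewer cells of a type and less RNA per cell cannot be told apart. The libraries held 23312054 recovered reads (neuron) and 26346226 (NPC).

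Of the 10 genes, 3 were at least 2-fold lower in the neuron library (Crb2, Ctnna1 and Pard3) and 1 was at least 2-fold higher (Prkcz), on the scale log2((neuron + 1 CPM)/(NPC + 1 CPM)). The other 6 lay within 2-fold. Of the 12693 genes that reached 1 CPM in either library, 6.73% were at least 2-fold lower in the neuron library and 3.85% at least 2-fold higher, 10.6% in all. The median log2 ratio of the 10 genes was -0.54, against -0.0049 for all genes past the filter. All 10 passed this filter, and the lowest of them in either library, Crb2 in the neuron library, rested on 266 reads. Both directions occurred within the PAR complex.

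**Figure D1:**
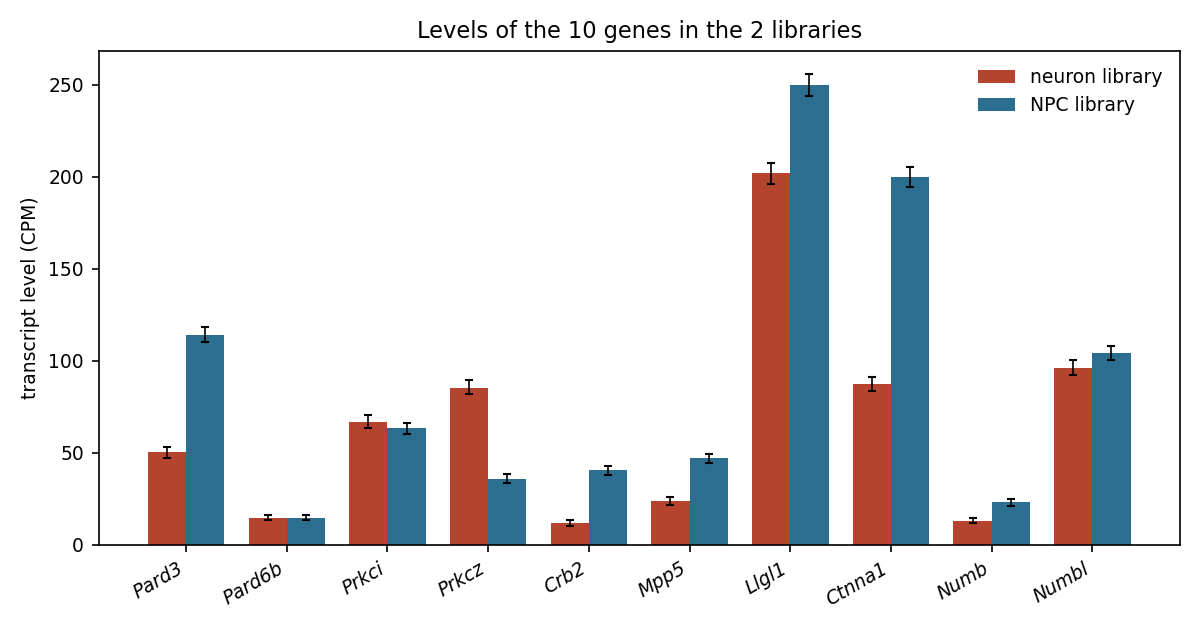
Transcript level in CPM (linear axis) of each of the 10 genes in the neuron library (red, left bar) and the NPC library (blue, right bar), with 1 library each. Error bars are exact 95% Poisson intervals of the read counts. Of the 10 genes, 7 have the shorter bar in the neuron library, and Crb2, Ctnna1 and Pard3 are those at least 2-fold lower there. Prkcz is at 85.3 CPM in the neuron library against 35.9 in the NPC library.

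Pard3 encodes PAR3, the scaffold that places PAR6 and the atypical kinase at the junction. It was at 50.2 CPM in the neuron library and 114.0 CPM in the NPC library, from 1143 and 3075 reads. Its level was thus 2.27-fold lower in neurons (2.12 to 2.43), a log2 ratio of -1.17 that lies at percentile 4.99 of all genes past the filter. Its relative Pard3b was at 4.78 CPM in neurons and 16.6 CPM in NPCs, 3.48-fold lower. Pard6b encodes a PAR6 adaptor that joins CDC42 to the kinase. It had 14.6 CPM in both libraries, from 333 reads in neurons and 393 in NPCs, with a ratio of 1.003 (0.864 to 1.16). No difference was detectable at this depth. The other PAR6 genes also lay within 2-fold between the libraries. Pard6g was at 67.7 CPM in neurons and 70.4 in NPCs, and Pard6a at 15.1 CPM in neurons and 12.4 in NPCs, a ratio of 1.21 (1.04 to 1.41). Cdc42 was at 308.9 CPM in neurons and 292.8 in NPCs. Of the 8 PAR complex genes, all past the filter, 2 (Pard3 and Pard3b) were at least 2-fold lower in neurons and 1 (Prkcz) higher, with a median log2 ratio of 0.04.

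The 2 atypical kinase genes differed from each other. Prkci, for the iota/lambda form, was at 66.7 CPM in neurons and 63.1 CPM in NPCs (1520 and 1702 reads), a ratio of 1.06 (0.986 to 1.134). Prkcz, for the zeta form, was at 85.3 CPM in neurons and 35.9 CPM in NPCs (1944 and 967 reads). It was 2.38-fold higher in neurons (2.20 to 2.57), at percentile 98.0 of the log2 ratios. Per kilobase of coding length, Prkcz made up 56.2% of the summed level of both kinase genes in neurons and 36.3% in NPCs. The ratio of Prkcz reads to Prkci reads, which does not depend on scaling between libraries, was 1.28 in neurons and 0.568 in NPCs, and these ratios were 2.25-fold apart (2.03 to 2.50).

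Prkcz is known in brain for a short product, PKM-zeta, which starts inside the gene and lacks the regulatory part that binds PAR6. Summed reads per gene cannot tell this product from full-length PKC-zeta. The start windows of both are shown because they mark where the forms differ. In RefSeq on build GRCm38.p6, 1 window of 250 bases before to 50 after a start lies at chr4:155361379-155361678 on the minus strand, and a coding transcript of GENCODE M21 that begins within 100 bases of that start encodes up to 592 codons. An internal window lies at chr4:155345740-155346039 on the same strand, and the coding transcript that begins there encodes 409 codons. The upstream window holds 31 CpG dinucleotides and the internal one 13, against a median of 7 in all windows. Capitals mark CAGGTG, the E-box bound by Snail, Scratch and Zeb factors, and CAGATG, an E-box of proneural factors, each searched on both strands.
Prkcz upstream start: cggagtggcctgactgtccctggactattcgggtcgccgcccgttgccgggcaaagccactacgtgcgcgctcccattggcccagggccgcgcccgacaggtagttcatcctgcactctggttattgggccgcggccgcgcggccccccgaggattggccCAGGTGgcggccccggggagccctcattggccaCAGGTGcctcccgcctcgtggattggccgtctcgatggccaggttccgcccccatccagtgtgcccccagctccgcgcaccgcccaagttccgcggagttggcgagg
Prkcz internal start: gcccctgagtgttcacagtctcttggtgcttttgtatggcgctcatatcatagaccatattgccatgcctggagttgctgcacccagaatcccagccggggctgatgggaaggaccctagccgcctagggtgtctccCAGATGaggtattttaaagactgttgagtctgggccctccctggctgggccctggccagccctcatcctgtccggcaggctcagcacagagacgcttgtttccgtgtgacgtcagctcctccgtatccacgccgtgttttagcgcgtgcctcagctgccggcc
The upstream window holds CAGGTG at 2 places and the internal window holds CAGATG at 1. A further internal RefSeq window of Prkcz, at chr4:155344700-155344999, is not shown. No GENCODE coding transcript begins within 100 bases of its start, and it holds CAGGTG at 1 place. Of all 32851 RefSeq windows of this length, 20.2% hold the first motif on either strand and 17.2% the second. The matches describe letters and say nothing of binding.

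For Pard3, the 5′-most window and an internal window are shown, since GENCODE coding transcripts begin at each. The first lies at chr8:127063806-127064105 on the plus strand and precedes a transcript of up to 1334 codons, and the internal one at chr8:127299362-127299661, also plus, precedes one of up to 896 codons. GC content is 78.7% in the first and 50% in the internal window, against a median of 52.7% for all windows. Capitals mark the E-box CAGGTG and the Sox motif ACAATG on either strand, and none of the matches overlap.
Pard3 first start: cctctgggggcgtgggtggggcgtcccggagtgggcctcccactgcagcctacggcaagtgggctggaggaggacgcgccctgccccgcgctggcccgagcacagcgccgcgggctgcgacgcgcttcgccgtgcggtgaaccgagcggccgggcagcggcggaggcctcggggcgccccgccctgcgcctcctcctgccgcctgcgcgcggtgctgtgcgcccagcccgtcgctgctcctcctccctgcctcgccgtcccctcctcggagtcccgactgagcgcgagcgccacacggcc
Pard3 internal start: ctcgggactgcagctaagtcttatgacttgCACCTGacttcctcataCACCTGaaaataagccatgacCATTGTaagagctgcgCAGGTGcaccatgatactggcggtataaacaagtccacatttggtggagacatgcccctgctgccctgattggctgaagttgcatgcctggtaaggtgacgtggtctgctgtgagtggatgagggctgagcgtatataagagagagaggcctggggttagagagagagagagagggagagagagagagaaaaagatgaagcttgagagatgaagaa
The first window holds none of the searched motifs. The internal window holds CAGGTG at 3 places and ACAATG at 1, and 12.6% of all windows hold the Sox motif. The gene counts sum both starts, so the 2.27-fold difference of Pard3 was not assigned to either.

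Crb2, the main Crumbs gene of the cortical ventricular surface, had the lowest neuron to NPC ratio of the 10. It was at 11.7 CPM in neurons and 40.4 CPM in NPCs (266 and 1089 reads), 3.46-fold lower in neurons (3.02 to 3.97), at percentile 1.28. Crb2 exons overlap those of Dennd1a on the other strand in GENCODE M21, and the sources used here do not say whether reads were counted by strand, so reads in the shared stretch cannot be assigned to either gene. Dennd1a was at 67.3 CPM in neurons and 90.3 CPM in NPCs. Crb1 was at 2.94 CPM in neurons and 7.90 CPM in NPCs, 2.68-fold lower. Crb3, the Crumbs gene of many epithelia, had 1 read in the neuron library and 0 in the NPC library, which allows up to 0.111 CPM there. Per kilobase of coding length Crb2 held 78.7% of the Crumbs level in neurons and 84.9% in NPCs. Its start window lies at chr2:37775999-37776298 on the plus strand of GRCm38.p6 and is shown as that of the member with the largest difference. The RBPJ motif GTGGGAA, for the DNA-binding partner of Notch, was searched in addition to the E-boxes and the Sox motif.
Crb2 start: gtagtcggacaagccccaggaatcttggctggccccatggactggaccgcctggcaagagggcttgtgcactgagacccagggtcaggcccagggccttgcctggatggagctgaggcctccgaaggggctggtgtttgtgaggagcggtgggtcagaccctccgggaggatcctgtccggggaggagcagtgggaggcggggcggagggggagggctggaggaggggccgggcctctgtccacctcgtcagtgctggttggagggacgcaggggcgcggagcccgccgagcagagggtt
It has 15 CpG dinucleotides and a GC content of 69.3%, and none of the searched motifs on either strand. The RBPJ motif occurs in 6.38% of all windows and, among the 13 windows of 8 of the 10 genes, in that of Llgl1 alone.

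Mpp5, also called Pals1, links Crumbs to PATJ and to PAR6. It was at 23.6 CPM in neurons and 46.8 CPM in NPCs (537 and 1263 reads), 1.99-fold lower in neurons (1.79 to 2.20). Its log2 ratio of -0.96 was the nearest of the 10 to the 2-fold line, and its counting interval spans it. The other partners lay on both sides of equality. Inadl, the PATJ gene, was at 12.9 CPM in neurons and 27.7 CPM in NPCs (2.15-fold lower). Mpdz, for the related scaffold MUPP1, was at 81.8 CPM in neurons and 169.7 CPM in NPCs (2.07-fold lower). The LIN7 genes, whose products bind PALS1 and also serve synaptic vesicles, had log2 ratios above 0, between 0.16 and 0.66. Of the 8 Crumbs complex genes past the filter, Crb2 and Mpp5 included, 4 were at least 2-fold lower in neurons and 0 higher, with a median log2 ratio of -1.002.

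Llgl1, the LGL gene of the cortex, had the highest level of the 10 per kilobase. It was at 201.7 CPM in neurons and 249.6 CPM in NPCs (4596 and 6733 reads), 1.24-fold lower in neurons (1.19 to 1.28). Its exons overlap in the same way with those of Flii, which was at 100.6 CPM in neurons and 104.0 CPM in NPCs. Its relative Llgl2 was barely detected, with 8 reads in neurons and 22 in NPCs. The basolateral list, which adds SCRIB, DLG and PAR1 (MARK) kinases and LKB1, had a median log2 ratio of 0.03. Of its 12 genes past the filter, 0 were at least 2-fold lower in neurons and 1 higher. That gene was Dlg2, a scaffold of the postsynaptic density, at 92.8 CPM in neurons and 30.9 CPM in NPCs. Dlg4 (PSD-95) had a log2 ratio of 0.71, Mark1 of 0.49 and Mark4 of 0.42.

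Ctnna1 encodes alpha-E-catenin, which ties the cadherin and beta-catenin complex to actin. It was at 87.0 CPM in neurons and 199.8 CPM in NPCs (1983 and 5388 reads), 2.29-fold lower in neurons (2.18 to 2.42), at percentile 4.81. Lrrtm2, a synaptic adhesion gene whose exons overlap those of Ctnna1 on the other strand, was at 35.8 CPM in neurons and 25.9 CPM in NPCs. Ctnna2, which encodes the neural alpha-N-catenin, lay in the other direction, at 327.5 CPM in neurons and 161.3 CPM in NPCs, 2.03-fold higher in neurons (1.96 to 2.11). Per kilobase of coding length Ctnna2 made up 77.9% of the level of this pair in neurons and 43.1% in NPCs. Ctnna1 was thus the more abundant of the pair in NPCs and the less abundant in neurons. The ratio of Ctnna2 to Ctnna1 reads was 3.76 in neurons and 0.807 in NPCs, 4.66-fold apart (4.37 to 4.97), and is free of the scaling between libraries. This was the widest of the 5 gene pairs compared in this way.

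Of 16 adherens junction genes past the filter, 5 were at least 2-fold lower in neurons and 1, Ctnna2, was higher, with a median log2 ratio of -0.29. Plekha7, which anchors microtubules at junctions, was at 5.66 CPM in neurons and 15.5 CPM in NPCs (2.73-fold lower). Vcl, the vinculin gene, was at 22.7 CPM in neurons and 55.6 CPM in NPCs (2.44-fold lower). Outside the rule for named genes and picked after their values were seen, Tjp1 (ZO-1) was 2.03-fold lower, the N-cadherin gene Cdh2 was at 606.2 CPM in neurons and 621.4 CPM in NPCs, and the beta-catenin gene Ctnnb1 was at 1510 CPM in neurons and 2003 CPM in NPCs.

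Numb was at 13.0 CPM in neurons and 22.9 CPM in NPCs (296 and 619 reads), 1.77-fold lower in neurons (1.54 to 2.04). Numbl was at 96.0 CPM in neurons and 104.2 CPM in NPCs (2188 and 2811 reads), and 1.09-fold lower in neurons (1.03 to 1.15). In GENCODE M21, Numb exons overlap those of Gm46367 on the other strand, and Numbl exons those of Gm44641 on the same strand. Neither of these overlapping genes has a listed value, and reads in the shared stretches cannot be assigned. Per kilobase of coding length Numbl held 88.9% of the level of the pair in neurons and 83.1% in NPCs. The ratio of Numbl to Numb reads was 7.39 in neurons and 4.54 in NPCs, 1.63-fold apart (1.40 to 1.897). The list of NUMB partners, endocytic adaptors and Notch processing genes had a median log2 ratio of 0.06 over 15 genes. In it 0 were at least 2-fold lower in neurons and 1 was higher. That gene, Lnx2, for a ubiquitin ligase that binds NUMB, was at 64.5 CPM in neurons and 28.1 CPM in NPCs (2.29-fold higher, 2.10 to 2.51). Mib1, for the ligase that acts on Notch ligands, was 1.35-fold lower.

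**Figure D2:**
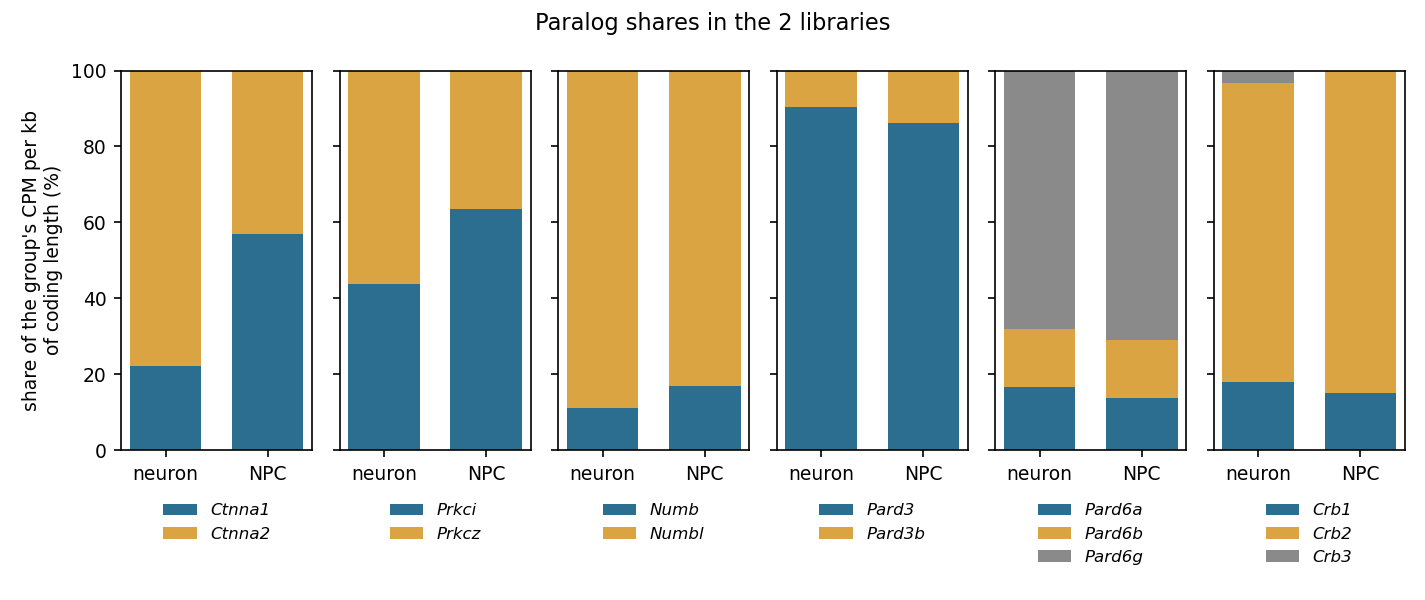
Share of each paralog group's summed CPM per kb of coding length (percent, stacked to 100) held by each gene in the neuron library (left bar of each panel) and the NPC library (right bar), 1 library each. The Ctnna2 share is 77.9% in neurons and 43.1% in NPCs, and the Prkcz share is 56.2% in neurons and 36.3% in NPCs. The Crb3 segment in the neuron bar, 3.27%, rests on 1 read.

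Compared per kilobase of coding length, Llgl1 led in both libraries, at 63.3 CPM per kb in neurons and 78.3 in NPCs, and Crb2 came last, at 3.04 CPM per kb in neurons and 10.5 in NPCs. In neurons the order after Llgl1 was Numbl, Prkcz, Prkci, Ctnna1, Pard6b, Pard3, Mpp5, Numb and Crb2. The 95% Poisson intervals of Pard6b, Pard3 and Mpp5 all overlapped one another. In NPCs it was Ctnna1, Numbl, Prkci, Pard3, Mpp5, Prkcz, Pard6b, Numb and Crb2. There the intervals of Pard6b and Numb overlapped, and so did those of Numb and Crb2. By coding length Prkcz ranked 3 in neurons and 7 in NPCs, and Ctnna1 ranked 5 in neurons and 2 in NPCs. The order depends on the length used. Per kilobase of the longest transcript, Pard6b (4.29 CPM per kb) lay below Crb2 (6.34) in NPCs. With that length Ctnna1 (23.3) lay above Prkcz (20.9) in neurons.

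**Figure D3:**
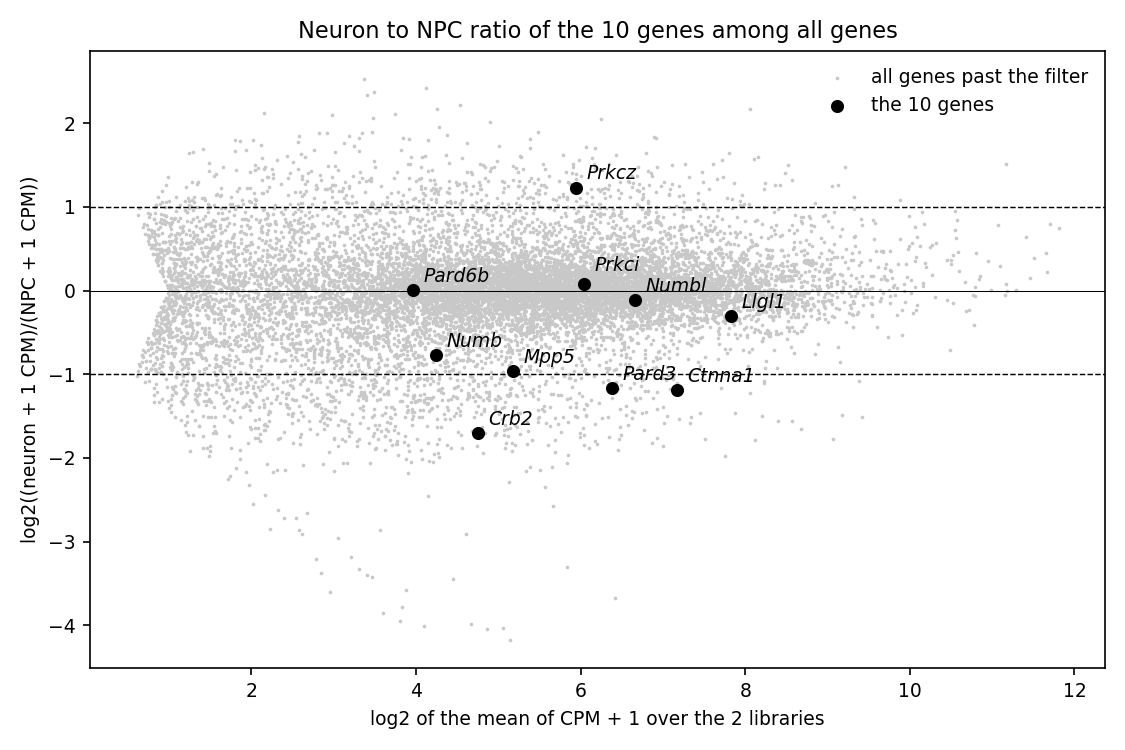
Each grey point is a gene past the filter, with log2 of the mean of both libraries' CPM + 1 on the x axis and log2((neuron + 1 CPM)/(NPC + 1 CPM)) on the y axis. Black points are the 10 genes and dashed lines mark 2-fold. Prkcz lies above the upper line at 1.23, and Crb2 (-1.71), Ctnna1 (-1.19) and Pard3 (-1.17) lie below the lower line.

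Genes that act with these proteins at the apical surface, at division and in the axon were set beside them, in lists chosen with earlier results of these data known. Of 12 genes of the apical membrane and its actin cortex, 3 were at least 2-fold lower in neurons and 0 higher, with a median log2 ratio of -0.11. Slc9a3r1, for the scaffold NHERF1 that joins membrane proteins to ezrin, was at 4.26 CPM in neurons and 17.0 CPM in NPCs (3.99-fold lower). Prom1, the prominin gene of progenitor microvilli and cilia, was at 49.5 CPM in neurons and 116.4 CPM in NPCs (2.35-fold lower). Msn (moesin) was 2.16-fold lower and Ezr (ezrin) 1.87-fold lower.

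Of 13 spindle orientation and division asymmetry genes past the filter, 1 was at least 2-fold lower in neurons and 0 were higher, with a median of 0.19. Aspm, a spindle pole gene whose loss causes microcephaly, was at 42.7 CPM in neurons and 133.7 CPM in NPCs. Gpsm2, for LGN, which holds the spindle to the cortex, was at 33.8 CPM in neurons and 68.0 CPM in NPCs (2.01-fold lower, and at -0.99 on the scale with 1 CPM added). Gnai2 was 1.57-fold lower and Dctn1 1.46-fold higher. Of 9 transcription factors of delamination past the filter, 3 were at least 2-fold lower in neurons and 0 higher, with a median of -0.44. They were Neurog2, Eomes and Zeb1. Neurog2 was at 170.0 CPM in neurons and 502.1 CPM in NPCs and Eomes at 353.6 CPM in neurons and 1013 CPM in NPCs, and both are also in the list of intermediate progenitor markers. Zeb1, a repressor of epithelial genes, was at 58.6 CPM in neurons and 132.8 CPM in NPCs, and Foxp2 was 1.95-fold lower. The list mixes factors that hold cells in the ventricular zone with factors that release them, so its median has no single direction.

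Of 13 partners of the PAR complex in axon specification, 1 was at least 2-fold higher in neurons and 0 lower, with a median of 0.19. Tiam2, for a Rac activator known as STEF that binds PAR3, was at 877.6 CPM in neurons and 403.1 CPM in NPCs (2.18-fold higher). The kinase gene Brsk1 (1.42-fold), the kinesin gene Kif3a (1.37-fold) and the Rac activator gene Tiam1 (1.34-fold) had higher values in neurons too, all under 2-fold. Over all 9 lists, 96 genes other than the 10 passed the filter. Of these 15 were at least 2-fold lower in neurons and 4 higher, and their median log2 ratio was -0.0055.

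**Figure D4:**
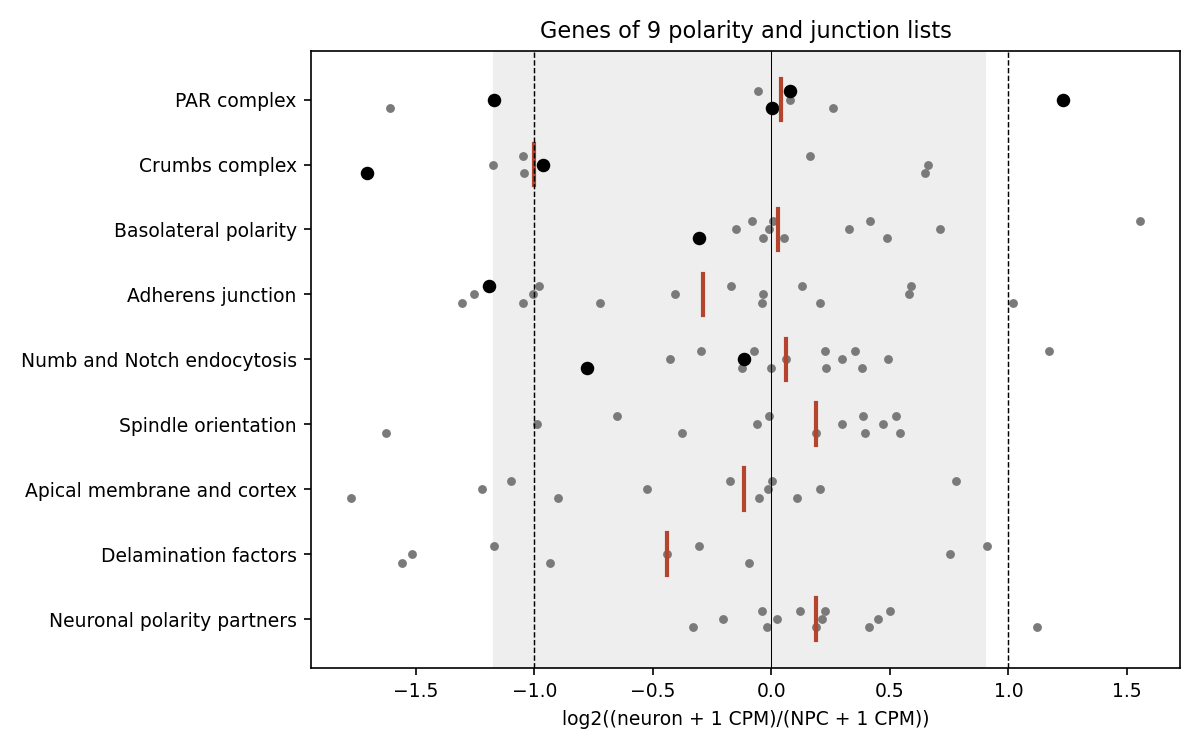
Log2((neuron + 1 CPM)/(NPC + 1 CPM)) of each gene past the filter in 9 lists, with black points for the 10 genes, grey points for the others and a red bar for each list's median. Shading spans the 5th to 95th percentile of all genes (-1.17 to 0.90) and dashed lines mark 2-fold. The Crumbs complex has the lowest median, at -1.002.

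Markers of the sorted and of other cell types differed between the libraries as well, and their part in the values above was not tested. All 8 radial glia markers were at least 2-fold lower in neurons, at a summed 617.8 CPM in neurons and 1711 CPM in NPCs, and none was at 0. The highest of them, Vim, was at 196.7 CPM in neurons and 623.0 CPM in NPCs. The sorting reporters' genes were read in both libraries, Nes at 189.5 CPM in neurons and 408.5 CPM in NPCs, and Dcx at 3294 CPM in neurons and 2522 CPM in NPCs. The 6 intermediate progenitor markers summed to 897.2 CPM in neurons and 2192 CPM in NPCs. The 9 neuron markers summed to 7701 CPM in neurons and 5072 CPM in NPCs and none was at 0 in either. Dcx, a gene of the sorting reporters, is the highest member of this sum in both libraries. Taken singly, 3 of the 9 passed the upper 2-fold line (Nefl, Nefm and Stmn2), and 6 lay within 2-fold. Rbfox3 alone went the other way, at 99.6 CPM in neurons and 107.5 CPM in NPCs. The 8 endothelial markers summed to 3.47 CPM in neurons and 20.501 CPM in NPCs, and the highest in the NPC library, Kdr, was at 0.439 CPM in neurons and 4.82 CPM in NPCs. The 7 pericyte markers summed to 9.44 CPM in neurons and 203.7 CPM in NPCs, and the 5 oligodendrocyte lineage markers to 2.81 CPM in neurons and 76.8 CPM in NPCs. Cspg4, at 1.01 CPM in neurons and 31.2 CPM in NPCs, is counted in both lists. The 8 microglia markers summed to 121.7 CPM in neurons and 28.6 CPM in NPCs. Of the 6 choroid plexus and ependyma markers, 3 were at 0 reads in neurons and 1 in NPCs, and Foxj1 alone passed the filter.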

How the data were processed

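Mouse build mm9, edgeR (version not given), SAMtools 0.1.18, TopHat 1.2.0 and CASAVA 1.9 are listed in the submitters' processing notes, which state no role or order. Total RNA was extracted with TRIzol and made into libraries with an Illumina TruSeq kit, per the labels' protocols. Not given in the sources used here: annotation, use of strand, treatment of multiply aligned reads. The authors deposited 1 value per gene, a signal on the scale of reads. In each library the values are whole multiples of a step (1.128 in neurons, 0.953 in NPCs) after a small offset, and dividing by it recovered reads that were whole to within 0.05 for 100% of values. Values under 0.01 in either library were taken as 0. Both columns were divided by the mean of their sums and multiplied by 1000000 to give CPM, which keeps the deposited ratio between the libraries.

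Genes at 1 CPM or more in at least 1 library were compared with 1 CPM added, which understates differences of low genes. Intervals and the floor of 3 reads cover counting error only, since reads carry no molecular identifiers. No test across samples is possible with 1 library per group. No count model was fitted, and edgeR 4.0.16 in R 4.3.3 was used only for TMM scaling. Other calculations used Python 3.11.15 and scipy 1.17.1. Only the recovery of reads, the Clopper-Pearson intervals and the 2-fold comparison were run on simulated counts. These were drawn with Poisson noise and the fitted step and offset, so they cannot check that model of the values. Paralog, list and motif calculations were not tested in this way. Coding lengths are the longest of GENCODE M21, and start windows are RefSeq sequences of GRCm38.p6, matched by symbol for 8 of the 10 genes, used as sequences only since the expression files hold no coordinates. The members and lists were chosen with earlier results of these data known. Beside the members, the genes named are their paralogs, Nes and Dcx as a check of the sort, and up to 4 per pathway list, taken by the size of the log2 ratio. All others (Cdc42, the LIN7, Snail, Scratch and cadherin genes, single markers, overlapping genes and those so described) were chosen after their values were seen. A gene that this rule names is not reported here. Of 114 genes in the 9 pathway lists, 1 was not matched and is not analysed here. Tried as alternatives were other added values, filters and scalings, and, after the data were seen, other lengths for paralog shares and for the order of levels.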

Additional observations from a re-analysis of the deposited data

How the results depend on the processing

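No paired analysis was possible because each group has 1 library, and leaving out a replicate was not possible for the same reason. The 7 alternatives were 0.5 or 5 CPM added, no filter, a minimum of 10 CPM, and scaling by total reads, upper quartile or TMM factors. Each shift was compared with the mean distance, on the log2 scale, from the gene's ratio to the ends of its counting interval. By this measure 68 of 70 values of the 10 genes moved by less, and 0 of the called ones changed sign. The filter settings do not enter a gene's own ratio, and all 10 genes passed each of them. Under those settings the values and calls of the 10 genes were therefore fixed in advance, though they are counted among the 70. Llgl1 under scaling by total reads and Crb2 with 5 CPM added moved by more, to -0.37 and -1.44 on the log2 scale. Pard6b, at 0.0043, had ratios from -0.058 to 0.0045. Of the 10 genes, 3 were at least 2-fold lower in neurons under each alternative except scaling by total reads, where Mpp5 made 4, and 1 was higher under all 7. Counts of all genes at least 2-fold apart did move. In the main setting 489 of 12693 genes were higher and 854 lower in neurons. With 5 CPM added these counts were 238 and 399 of the same 12693. With a minimum of 10 CPM 548 were lower, out of 9950 genes compared. Scaling by total reads shifted the median of all genes by -0.064. Paralog shares moved with the length used, alternatives chosen after seeing the data. With transcript length, Ctnna2 held 42.0% in NPCs, Prkcz 59.6% in neurons and 39.6% in NPCs, and Numbl 90.5% in neurons and 85.4% in NPCs. Without length, Ctnna2 held 79.0% in neurons and 44.7% in NPCs. With the coding length of the short Prkcz form, Prkcz held 65.0% in neurons and 45.3% in NPCs.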

Other observations

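The Snail genes, whose products repress cadherin genes in other tissues, were barely detected. Snai1 had 3 reads in neurons and 4 in NPCs, Snai2 had 0 in neurons and 6 in NPCs, and Snai3 had 0 in neurons and 1 in NPCs. The related Scratch genes, chosen here after their values were seen, were abundant. Scrt1 was at 182.9 CPM in neurons and 96.8 CPM in NPCs, and Scrt2 at 345.8 CPM in neurons and 369.1 CPM in NPCs. Zeb2, chosen in the same way, was at 666.2 CPM in neurons and 394.6 CPM in NPCs. The epithelial cadherin gene Cdh1 had 1 read in neurons and 0 in NPCs.

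Fat4, an atypical cadherin gene, was at 559.4 CPM in neurons and 325.7 CPM in NPCs, the largest log2 ratio (0.78) among the 12 genes of the apical membrane list. Dchs1, for its ligand, was at 674.5 CPM in neurons and 673.3 CPM in NPCs. These genes, too, were picked with their values in view, as were Insc and Gpsm1. Insc, for inscuteable, had 7 reads in neurons and 15 in NPCs, and a difference was not detectable at this depth. Gpsm1 (AGS3), which shares Gi subunits with LGN, was 1.31-fold higher in neurons (1.25 to 1.38), and Gpsm2 was 2.01-fold lower there.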
